A study of Mus musculus with 12 samples.

Results

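The genes of hepatic glycogen turnover were examined in liver RNA of 6 sedentary control (Con) mice and 6 chronic exercise (Exe) mice. The members were named by symbol, and all 9 were found among the 16821 genes listed: Ugp2, Gyg, Gys2, Gbe1, Ppp1r3b, Ppp1r3c, Ppp1r3g, Pygl and Phka2. All mice were male C57BL/6J, bought at 8 weeks of age and adapted for 1 week, with free access to food and water. Moderate treadmill running was then given to the Exe mice in daily sessions of 60 min, 5 a week for 6 weeks, and the Con mice were not trained. Not more than 24 h after the final session, the livers were flushed with saline and removed. Time since the last meal is not given per mouse in the sources used here. Each mouse gave 1 library, called here by its group and number (Con 1, Exe 1).

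Glycogen is the branched glucose store of the liver, filled after meals and released as blood glucose between meals and during muscle work. Ugp2 makes the activated sugar UDP-glucose, Gyg (glycogenin) primes a new particle, Gys2 (the liver glycogen synthase) lengthens the chains and Gbe1 puts in the branches. Pygl (the liver glycogen phosphorylase) removes glucose units again, and Phka2 is a regulatory subunit of the kinase that switches phosphorylase on. Ppp1r3b, Ppp1r3c and Ppp1r3g are subunits that carry protein phosphatase 1 to glycogen, where it switches glycogen synthase on and phosphorylase off. Much of this control acts on the proteins through phosphorylation and glucose 6-phosphate, which RNA levels do not show.

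The values were FPKM, that is, fragments counted on a gene per kilobase of its transcript and relative to all mapped fragments of the library, which may be compared between genes since they are per length. Summed over genes, each library held 735200 to 820107 FPKM, and 14595 to 15066 genes were above 0 in each mouse. The files hold no read counts, so the depth in reads is unknown. The relative depth, estimated from 37 genes so low that their FPKM stepped in whole multiples, lay between 0.988 and 1.024. Only genes whose values fitted a common step across the mice were kept, so large differences in depth could not show in this estimate. Of 7 hepatocyte markers, all had a mean of at least 1 FPKM, and summed to 52380 to 69000 FPKM per Con liver and 60150 to 75540 FPKM per Exe liver. Their mean was higher in Exe mice for 5 of the 7. The mean log2(FPKM + 1) over the list did not pass a test between groups (exact permutation p = 0.807). This measure weighs each marker alike, and the sums themselves were not tested. The 7 other marker lists did not pass the same test of the mean log2(FPKM + 1). They cover skeletal and heart muscle, red blood cells, neutrophils, Kupffer cells, bile duct and stellate cells. The lowest exact permutation p was 0.152, for red blood cells. Red blood cell markers summed to 235.1 to 902.9 FPKM per Con and 400.3 to 1290 FPKM per Exe liver, and these sums were not tested. A higher mean in Exe mice was found for 0 of 5 Kupffer cell, 0 of 5 bile duct and 0 of 4 stellate cell markers. It was found for 4 of 5 red blood cell, 6 of 6 neutrophil, 2 of 6 skeletal muscle and 3 of 5 heart muscle markers. Of these markers, only 2 of the 6 neutrophil and 0 of the skeletal and heart muscle ones had a mean of at least 1 FPKM. Their directions therefore rest largely on values near 0, unlike those of the red blood cell markers, where all 5 reached it. In bulk liver, fewer cells of a type and less RNA per cell cannot be told apart. Lcn2, an acute-phase gene, reached 719 FPKM in Con 1 and 609 FPKM in Exe 5, while the other 10 livers held 5.93 to 234 FPKM, so values without both mice are given below for Gys2, Gbe1, Pygl and Ppp1r3c.

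Pygl was the most abundant, with a mean over the 12 mice of 166.6 FPKM, followed by Ugp2 with 113.2 FPKM and Gys2 with 69.9 FPKM. Ppp1r3b had a mean of 39.9 FPKM, Gbe1 of 27.1 FPKM and Ppp1r3c of 20.7 FPKM. Phka2 (5.57 FPKM), Gyg (4.12 FPKM) and Ppp1r3g (0.469 FPKM) were the lowest. Within a mouse, Pygl was above Ugp2 and Ugp2 above Gys2 in 12 of 12 mice. The order was less firm in the middle, since Gys2 was above Ppp1r3b in 11 of 12 mice, Ppp1r3b above Gbe1 in 11 of 12 and Gbe1 above Ppp1r3c in 10 of 12. Only the pairs of Ppp1r3c with Phka2 and of Gyg with Ppp1r3g were neighbours whose ranges over the mice did not overlap.

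**Figure D1:**
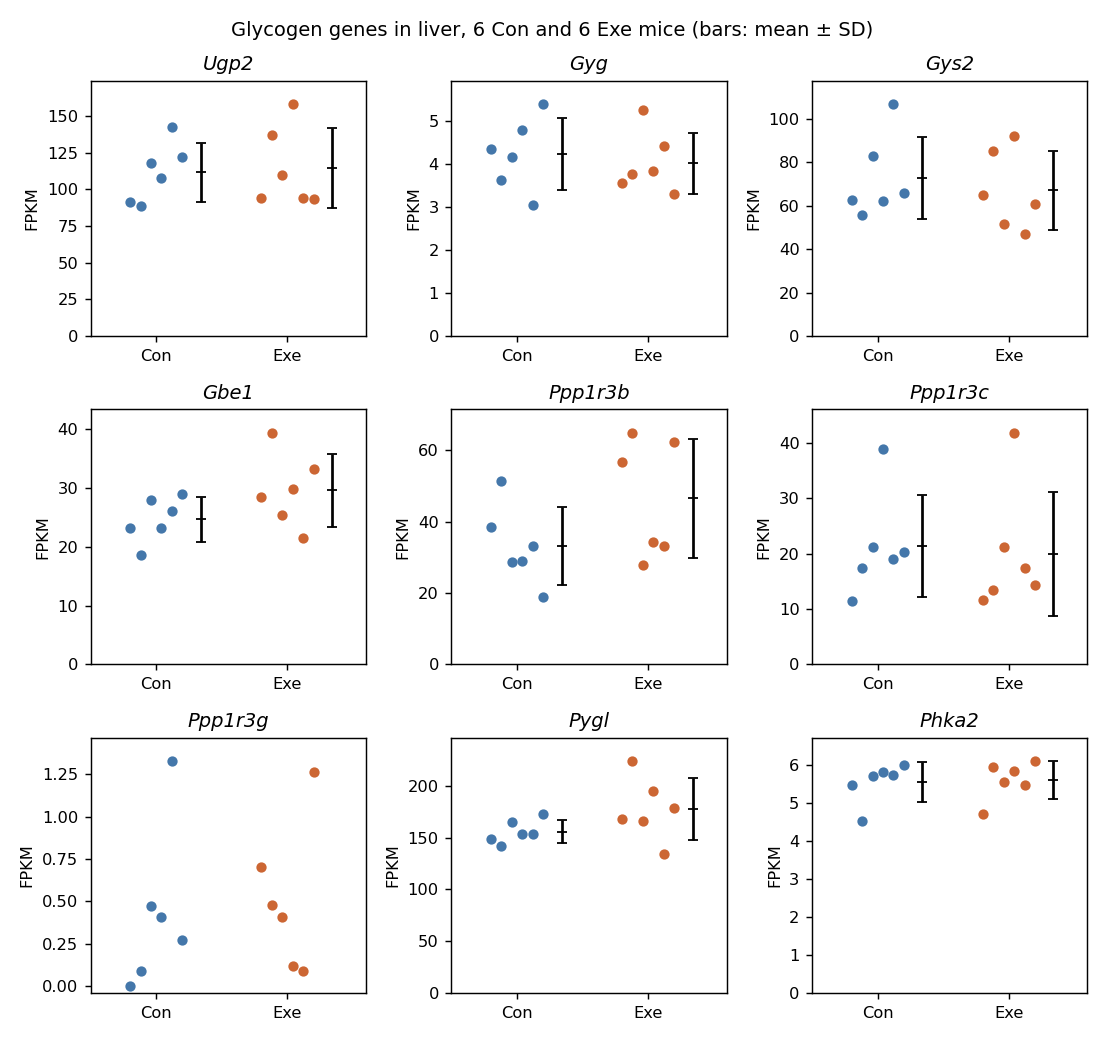
FPKM (vertical axes) of the 9 glycogen genes in each of 6 Con and 6 Exe mice (points), with the mean and SD of each group as bars, which were not drawn for Ppp1r3g because it was listed at 0 in Con 1. The Con and Exe points overlap in every panel.

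To ask whether 6 weeks of running went with a change in these transcripts, log2(FPKM + 1) was compared between Exe and Con mice with limma across the 10241 genes with at least 1 FPKM in at least 6 of the 12 mice. Of the 9 members, 8 passed this filter and Ppp1r3g did not. By limma with Benjamini-Hochberg adjustment, 0 of the 8 reached an adjusted p of 0.05 with an absolute log2 fold change over 1, as did 0 (0%) of all genes tested. The smallest adjusted p of any gene was 0.519 in this fit. The study, using DESeq, reported genes past the same thresholds, so the 0 here holds for limma on FPKM only. Without adjustment, 0 of the 8 members had a p under 0.05, beside 6.21% of all genes tested. Those 636 genes split into 437 higher (4.27% of all tested) and 199 lower (1.94%), with 0 members in either direction. This split of all genes was 351 to 267 under quantile normalization and 684 to 93 with every library scaled to the same sum. Of the members, 5 had a higher and 3 a lower mean in Exe mice. Their median log2 fold change was 0.018 beside 0.016 over all genes tested, and under quantile normalization it was -0.0089. The lowest adjusted p of a member was 0.849. Each p-value measures the spread between mice, with 1 library from each.

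**Figure D2:**
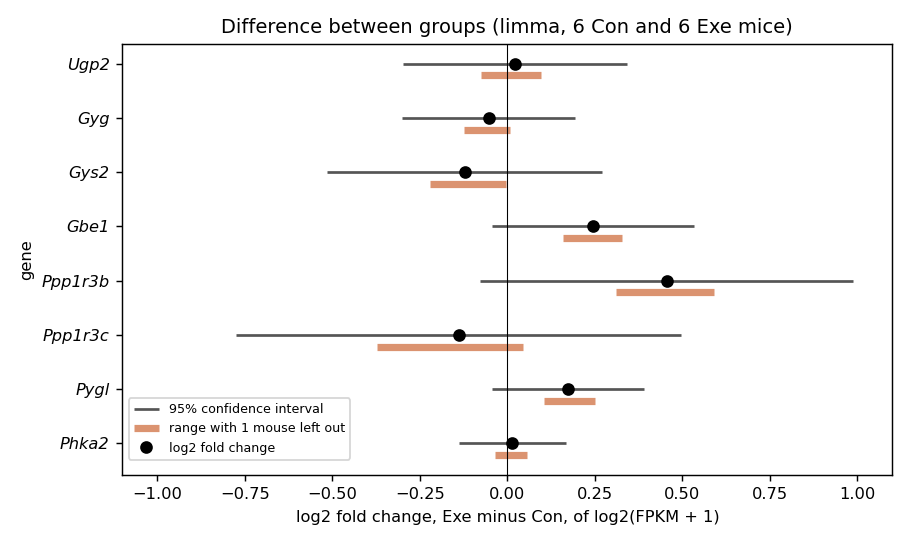
Log2 fold change (Exe minus Con, on the log2(FPKM + 1) scale) of the 8 glycogen genes tested, with the 95% confidence interval from limma as a thin line and the range over 12 fits that each left out 1 mouse as a thick line. Every interval includes 0, and that of Phka2 is the narrowest.

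For the supply of UDP-glucose, Ugp2 ranged from 88.7 to 142.3 FPKM (median 113) in the Con livers and from 93.6 to 158.1 FPKM (median 102) in the Exe livers. The highest value, 158.1 FPKM, was in Exe 4, and the groups overlapped. Group means were 111.8 ± 20.2 FPKM and 114.5 ± 27.2 FPKM (SD, n = 6 mice in each group). In limma Ugp2 had a log2 fold change of 0.02 (standard error 0.15, 95% confidence interval -0.30 to 0.34, adjusted p = 0.991 from limma), and its sign changed to -0.04 under quantile normalization between mice. Gyg, the primer, ranged from 3.03 to 5.38 FPKM (median 4.25) in the Con livers and from 3.29 to 5.24 FPKM (median 3.80) in the Exe livers, with both extremes of the 12 mice in the Con group. Its log2 fold change was -0.05 (standard error 0.11, 95% confidence interval -0.30 to 0.19, adjusted p = 0.966 from limma).

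Gys2, the synthase, ranged from 55.9 to 106.8 FPKM (median 64.3) in the Con livers and from 47.2 to 92.4 FPKM (median 63.0) in the Exe livers. Con 5 was above every Exe mouse, and Exe 3 and Exe 5 were below every Con mouse. The group means of 72.8 ± 19.0 FPKM and 67.1 ± 18.2 FPKM (SD, n = 6) differed by less than the SD of either group. For Gys2 the log2 fold change was -0.12 (standard error 0.18, adjusted p = 0.957 from limma). Its 95% confidence interval ran from -0.51 to 0.27, which is wider than that of Gyg or Ugp2. With 1 mouse left out it ran from -0.22 without Exe 4 to -0.0046 without Con 5, and it was -0.07 without Con 1 and Exe 5 together.

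Gbe1, the branching enzyme, ranged from 18.6 to 28.9 FPKM (median 24.6) in the Con livers and from 21.5 to 39.4 FPKM (median 29.2) in the Exe livers. Exe 2, Exe 4 and Exe 6 were above every Con mouse, Con 2 was below every Exe mouse, and the other mice overlapped. Con mice averaged 24.7 ± 3.78 FPKM and Exe mice 29.6 ± 6.22 FPKM (SD, n = 6). In limma Gbe1 had a log2 fold change of 0.24 (standard error 0.13, 95% confidence interval -0.04 to 0.53, adjusted p = 0.849 from limma). The exact two-sided permutation test over all divisions of the mice gave p = 0.136.

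Pygl, the phosphorylase, ranged from 141.4 to 173.1 FPKM (median 153) in the Con livers and from 133.7 to 223.7 FPKM (median 173) in the Exe livers. The same 3 Exe mice, Exe 2, Exe 4 and Exe 6, were above every Con mouse, whereas Exe 5 was below every Con mouse. The SD was 11.4 FPKM in Con and 30.2 FPKM in Exe mice (n = 6), around means of 155.7 and 177.5 FPKM. In limma this was a log2 fold change of 0.17 (standard error 0.10, 95% confidence interval -0.04 to 0.39, adjusted p = 0.859 from limma), and the exact two-sided permutation test gave p = 0.152.

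The values of Gbe1 and Pygl moved with single Exe mice, in both directions. Without Exe 2, the highest mouse in both genes, the log2 fold change was 0.16 for Gbe1 and 0.10 for Pygl (adjusted p = 0.999 from limma for each). Without Exe 5, the Exe mouse with the high Lcn2, Gbe1 had a log2 fold change of 0.33 with an unadjusted p of 0.0190 and an adjusted p of 0.534 from limma. Pygl then had a log2 fold change of 0.25, with an unadjusted p of 0.00935 and an adjusted p of 0.509. Without Con 1 and Exe 5 together the log2 fold changes were 0.31 for Gbe1 (unadjusted p = 0.0351 from limma) and 0.24 for Pygl (unadjusted p = 0.0196), again with 0 members at an adjusted p of 0.05. The part of the acute-phase level in these values was not tested.

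Phka2, of the activating kinase, had the smallest ratio of highest to lowest mouse among the 8 members tested (1.35), with values between 4.52 and 6.00 FPKM in Con mice (median 5.72) and between 4.72 and 6.10 FPKM in Exe mice (median 5.71). Group means were 5.54 ± 0.529 FPKM and 5.61 ± 0.495 FPKM (SD, n = 6). Phka2 had a log2 fold change of 0.01 (standard error 0.07, 95% confidence interval -0.14 to 0.17, adjusted p = 0.986 from limma).

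Of the phosphatase-targeting subunits, Ppp1r3b had the largest log2 fold change, in size, of the 8 members tested. It ranged from 18.9 to 51.3 FPKM (median 31.1) in the Con livers and from 27.8 to 64.9 FPKM (median 45.4) in the Exe livers. Exe 1 (56.5 FPKM), Exe 2 (64.9 FPKM) and Exe 6 (62.3 FPKM) were above every Con mouse, while Exe 3, Exe 4 and Exe 5 lay between 27.8 and 34.2 FPKM, within the Con range. Con mice averaged 33.3 ± 10.9 FPKM and Exe mice 46.5 ± 16.5 FPKM (SD, n = 6). The log2 fold change of 0.45 (standard error 0.25, 95% confidence interval -0.08 to 0.99) had an adjusted p of 0.849 from limma. The exact two-sided permutation test gave p = 0.141. With 1 mouse left out, the log2 fold change of Ppp1r3b ran from 0.31 without Con 6 to 0.59 without Con 2, and was 0.34 without Exe 2 and 0.36 without Exe 6. The unadjusted p for Ppp1r3b was under 0.05 without Con 2 and without Exe 3 alone among these 12 fits, where the adjusted p from limma was 0.842 and 0.772.

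Ppp1r3c ranged from 11.5 to 38.9 FPKM (median 19.6) in the Con livers and from 11.6 to 41.9 FPKM (median 15.8) in the Exe livers. A single mouse stood high in each group, Con 4 with 38.9 FPKM and Exe 4 with 41.9 FPKM, and the other 10 mice were at or below 21.2 FPKM. The means of 21.4 ± 9.25 FPKM and 19.96 ± 11.3 FPKM (SD, n = 6) gave a log2 fold change of -0.14 (standard error 0.30, 95% confidence interval -0.78 to 0.50, adjusted p = 0.966 from limma). Its sign rested on Con 4, since it was 0.05 without this mouse, and without Exe 4 it was -0.37. Without Con 1 and Exe 5 together it was -0.28.

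Ppp1r3g was low in all mice. It was listed at 0 in Con 1 and lay at 0.09, 0.47, 0.41, 1.33 and 0.27 FPKM in Con 2 to Con 6. In Exe 1 to Exe 6 it lay at 0.70, 0.48, 0.41, 0.12, 0.09 and 1.26 FPKM. Con 5 and Exe 6 were the 2 mice above 1 FPKM, and the groups overlapped. The difference of the mean log2(FPKM + 1), a scale that understates the change of so low a gene, was 0.09 (exact two-sided permutation p = 0.691, n = 6).

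Ppp1r3b and Ppp1r3c were the main glycogen-targeting subunits in these livers. Of the summed FPKM of the 7 Ppp1r3 genes (Ppp1r3a to Ppp1r3g), Ppp1r3b made up between 41.5% in Con 4 and 80.3% in Exe 2, and Ppp1r3c between 16.4% in Exe 1 and 55.7% in Con 4. The share of Ppp1r3b was 58.4% ± 13.7 in Con and 66.5% ± 15.4 in Exe mice (SD, n = 6). The sum of the 7 genes ran from 41.5 to 70.3 FPKM in Con mice (median 53.6) and from 51.3 to 80.8 FPKM in Exe mice (median 74.2). The log2 ratio of Ppp1r3b to Ppp1r3c within a mouse was 0.64 ± 0.84 in Con and 1.24 ± 1.06 in Exe mice (SD, n = 6), and Exe 1, Exe 2 and Exe 6 were above every Con mouse. The difference of 0.59 gave p = 0.303 in the exact two-sided permutation test, and without Con 4 it was 0.38. It was 0.90 without Exe 4 and 0.87 without Con 1 and Exe 5 together.

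**Figure D3:**
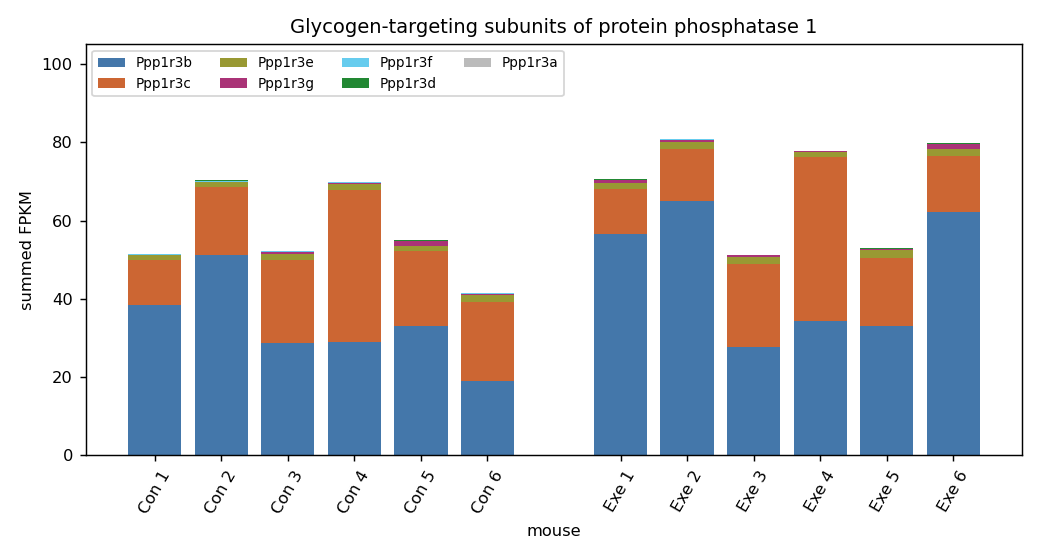
Summed FPKM (vertical axis) of the 7 glycogen-targeting subunits of protein phosphatase 1 in each of 6 Con and 6 Exe mice, stacked by gene. Ppp1r3b and Ppp1r3c fill nearly the whole bar in each mouse, and their proportion differs between mice of the same group.

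The balance of synthase to phosphorylase transcript was also taken within each mouse. The log2 ratio of Gys2 to Pygl was -1.12 ± 0.33 in Con and -1.41 ± 0.20 in Exe mice (SD, n = 6), so Pygl was the higher of the pair in every mouse. Exe 3, Exe 5 and Exe 6 were below every Con mouse, and no Exe mouse was above the Con range. The difference of -0.29 gave p = 0.0823 in the exact two-sided permutation test, and an adjusted p of 0.303 over the 4 ratios tested. Without Con 5, the mouse with the highest ratio, it was -0.17, and without Exe 4 it was -0.36 (exact permutation p = 0.0173, adjusted p = 0.0693). The log2 ratio of Ugp2 to Gbe1 differed by -0.22 (exact two-sided permutation p = 0.169) and that of Ppp1r3b to Ppp1r3g by 0.36 (p = 0.275, same exact test), which was 0.099 with a pseudocount of 0.1, 0.22 without Con 5 and 0.56 without Con 2. For Ugp2 to Gbe1 the difference was -0.13 without Exe 6 and -0.31 without Exe 4 (exact permutation p = 0.0390, adjusted p = 0.0779). After adjustment, 0 of the 4 ratios reached 0.05, also with any 1 mouse left out.

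Members differed in how much they varied between mice of a group. The SD of log2(FPKM + 1) within groups was 0.59 for Ppp1r3c and 0.49 for Ppp1r3b, at the 98.6th and 97.7th percentile of all genes tested, whose median SD was 0.14. Gys2 (0.36) was at the 94.6th percentile, Ugp2 (0.29) at the 90.7th, Gbe1 (0.26) at the 87.6th, Gyg (0.22) at the 80.7th and Pygl (0.19) at the 73.3rd. Phka2 (0.12) was at the 33.7th percentile and so varied less than the median gene. These percentiles describe the 12 livers and were not tested.

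**Figure D4:**
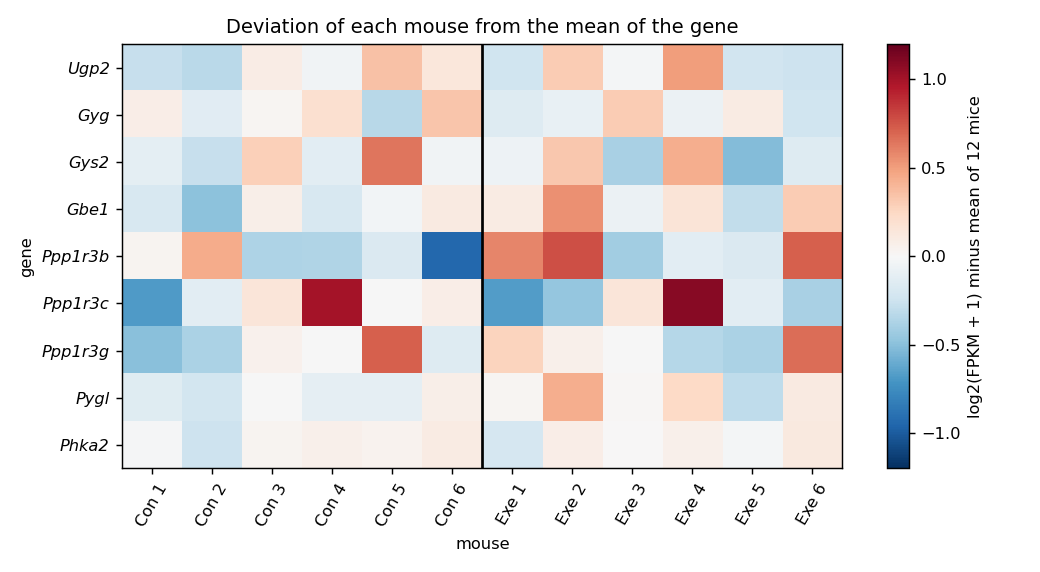
Deviation of log2(FPKM + 1) in each mouse (columns) from the mean of the 12 mice for the 9 glycogen genes (rows), with red above and blue below the mean. Ppp1r3c stands highest in Con 4 and Exe 4, Ppp1r3b in Exe 2 and Exe 6, and the row of Phka2 is nearly even.

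Among themselves, Gbe1 and Pygl rose and fell together from mouse to mouse. Pearson's r of log2(FPKM + 1) over the 12 mice was 0.921 (permutation p = 5e-05, adjusted p = 0.0018 over the 36 pairs of members) and Spearman's rho was 0.958 (permutation p = 3e-05, adjusted p = 0.00108). The relation held within each group, with r = 0.921 in Con mice (exact permutation p = 0.00833) and r = 0.932 in Exe mice (exact permutation p = 0.0125). Without Con 2 and Exe 2, the mice farthest from the median of Gbe1, r was 0.876 (permutation p = 0.00103, n = 10). This was the 1 pair of 36 whose r and rho both passed 0.05 after adjustment, and it passed in the 5 alternatives run, with a smaller pseudocount, under both other scalings between mice, on deviations from the group means, and without Con 1 and Exe 5. Ugp2 and Gys2 came next, with r = 0.816 (adjusted p = 0.0275, permutation test) but rho = 0.734 (adjusted p = 0.0924). Gyg and Ppp1r3b ran in opposite directions with r = -0.709 (adjusted p = 0.124, permutation test), which did not pass.

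**Figure D5:**
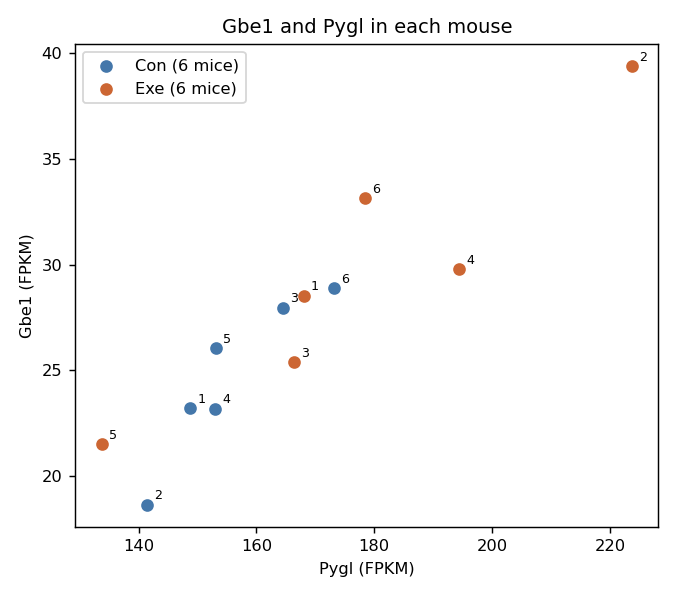
FPKM of Gbe1 (vertical axis) against Pygl (horizontal axis) in the 6 Con and 6 Exe mice, numbered within their group, with neither axis starting at 0. The points run from Con 2 and Exe 5 at the low end to Exe 2 at the high end in both genes.

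Since Gbe1 and Pygl tracked each other and Ppp1r3c varied most, the 250 bases before the start of these 3 genes are shown, from the RefSeq promoter table of GRCm38.p6, which held 7 of the 9 members. This build is older than the GRCm39 build of the alignment, and its coordinates are used for these windows only. The windows are Gbe1 at chr16:70313699-70313948 on the plus strand, Pygl at chr12:70227684-70227933 on the minus strand and Ppp1r3c at chr19:36736605-36736854 on the minus strand, each written 5′ to 3′ with the last base next to the start. Capitals mark matches on either strand to the E-box CACGTG, the CCAAT box, the GC box GGGCGG, the TATA box TATAAA and the FOXO element TGTTTAC.
Gbe1: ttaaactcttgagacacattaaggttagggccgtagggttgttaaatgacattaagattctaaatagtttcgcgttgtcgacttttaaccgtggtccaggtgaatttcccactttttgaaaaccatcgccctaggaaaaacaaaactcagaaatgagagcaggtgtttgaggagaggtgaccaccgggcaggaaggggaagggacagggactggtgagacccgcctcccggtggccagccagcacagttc
Pygl: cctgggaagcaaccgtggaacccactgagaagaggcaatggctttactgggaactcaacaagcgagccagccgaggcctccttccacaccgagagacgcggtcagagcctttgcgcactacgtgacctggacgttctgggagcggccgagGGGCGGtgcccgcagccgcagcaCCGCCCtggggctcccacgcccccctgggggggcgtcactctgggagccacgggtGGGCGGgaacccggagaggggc
Ppp1r3c: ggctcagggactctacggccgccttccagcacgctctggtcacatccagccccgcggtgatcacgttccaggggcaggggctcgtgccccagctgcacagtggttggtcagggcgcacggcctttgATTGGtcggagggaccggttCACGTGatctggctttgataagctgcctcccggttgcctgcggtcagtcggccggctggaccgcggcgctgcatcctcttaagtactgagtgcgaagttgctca
The Gbe1 window held 0 matches to these motifs, and that of Pygl held 3 GC boxes, at -100, -77 and -22 from the start. Of the 3 shown, the Ppp1r3c window alone held an E-box, at -104, and a CCAAT match, at -124. Of the 32851 windows of this length in the table, 6.02% hold CACGTG, 33.8% CCAAT, 32.7% GGGCGG, 12.4% TATAAA and 3.17% TGTTTAC. GC content was 48.8% for Gbe1, 69.2% for Pygl and 64.4% for Ppp1r3c.

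Likeness of profile was also measured against all genes tested, as the root mean square difference of standardised log2(FPKM + 1) over the 12 mice, where 0 is an identical profile and the median gene lay between 1.331 and 1.418 from a member. Closest to Gbe1 were Pdk1, a pyruvate dehydrogenase kinase (0.362), and Pygl (0.398). Closest to Pygl were Gbe1 (0.398) and Khk, the fructose-phosphorylating ketohexokinase (0.443). For Gys2 they were Myo10, an unconventional myosin (0.462), and Nr1d2, a clock repressor of the REV-ERB family (0.463), and for Ugp2 Nox4, an NADPH oxidase (0.330), and Wdr74 (0.386). Ppp1r3c was closest to Chd6 (0.393) and 2810459M11Rik (0.435), Gyg to Nlrx1 (0.502) and Bace2 (0.541), and Phka2 to Nfkbil1 (0.432) and Sin3b (0.492). Tmem208 lay 0.530 from Ppp1r3b. With this many genes some lie close by chance, so these are descriptions.

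The liver isoforms made up nearly all transcripts of their enzymes. Gys2 held 98.3% to 99.5% of the summed FPKM of Gys2 and the muscle synthase Gys1, which lay between 0.59 and 0.94 FPKM. Pygl held 98.5% to 99.3% of the phosphorylases, with the brain form Pygb at or below 1.90 FPKM and the muscle form Pygm between 0.20 and 0.48 FPKM. Phkg2 held at least 99.3% of the catalytic subunits of phosphorylase kinase. The regulatory alpha subunit was more mixed, with Phka2 at 83.1% ± 1.64 in Con and 80.6% ± 1.95 in Exe mice (SD, n = 6) and the muscle form Phka1 making up the rest. Phka1 ranged from 0.84 to 1.31 FPKM (median 1.13) in the Con livers and had a median of 1.34 FPKM with a highest value of 1.42 FPKM in the Exe livers, a log2 fold change of 0.14 (unadjusted p = 0.0491, adjusted p = 0.799 from limma). The muscle subunit Ppp1r3a was at or below 0.02 FPKM in all mice. Of the skeletal muscle markers, 6 were in the files and their sum was between 0.31 and 1.63 FPKM per mouse.

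Other genes of glycogen metabolism were taken from lists by role, and 40 of 56 passed the filter. By limma, 0 of the 40 reached an adjusted p of 0.05. Unadjusted, 5 of the 40 (12.5%) had a p under 0.05, where the share over all genes tested was 6.21%. Of these, 4 were higher in Exe mice (background 4.27%), namely Ppp1r3e, Prkag2, Adra1b and Phka1. This count of 5 was not steady. It was 1 without Con 2 or without Con 5, 2 without Con 3, Con 6, Exe 3 or Exe 6, and 3 without Exe 1, Exe 2 or Exe 5. Over the fits without 1 mouse, all genes under this p went from 418 to 910 of 10241, beside 636 with all mice. Of the 40, 21 were higher and 19 lower, with a median log2 fold change of 0.0004. This split depended on the scaling between mice, with 17 of 40 higher (median -0.0126) under quantile normalization and 28 of 40 higher (median 0.0349) with equal sums of FPKM.

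For entry and exit of glucose 6-phosphate, Gckr had a log2 fold change of 0.07 (limma, adjusted p = 0.946). Slc37a4, the glucose 6-phosphate transporter, had 0.16 (adjusted p = 0.931). G6pc, the glucose 6-phosphatase that ends glycogen breakdown in liver, ranged from 75.8 to 246.3 FPKM in Con and from 16.2 to 274.6 FPKM in Exe livers. Its log2 fold change of -0.19 (limma, adjusted p = 0.975) rested on Exe 5, the lowest of the 12 mice, and for G6pc it was 0.38 (adjusted p = 0.781) without that mouse. Hk3 had -0.14 (adjusted p = 0.937), and of the 7 genes of this list tested 4 were higher and 3 lower.

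Among the kinases and their activators, Adra1b, an adrenergic receptor that signals through calcium, had a log2 fold change of 0.28 (unadjusted p = 0.0431 from limma). Of the 12 genes of this list tested, 7 were higher and 5 lower. Of the kinases acting on glycogen synthase, Prkag2, a regulatory subunit of AMP-activated protein kinase, had 0.21 (unadjusted p = 0.0257 from limma) and Gsk3b, a synthase kinase, had -0.13 (unadjusted p = 0.10), with 5 of 10 higher. Csnk2a1 had 0.05 (unadjusted p = 0.343 from limma). Of the phosphatase genes, the targeting subunit Ppp1r3e had 0.18 (unadjusted p = 0.0227 from limma) and lay between 1.15 and 1.73 FPKM in Con and between 1.46 and 1.99 FPKM in Exe mice. The catalytic subunits Ppp1cc and Ppp1ca had -0.07 and -0.04, and 3 of 5 genes of this list were higher.

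Of the genes for breakdown and debranching, 1 of 4 was higher. Stbd1, which anchors glycogen to membranes, had a difference of -0.32 on the log2 scale (limma, adjusted p = 0.859). Pygb had -0.11 (adjusted p = 0.924 from limma) and the lysosomal glucosidase Gaa -0.06 (adjusted p = 0.937). For synthesis, Pgm1, the phosphoglucomutase that links glucose 6-phosphate to UDP-glucose, had 0.03 (adjusted p = 0.966 from limma), and Pgm2 had -0.08 (adjusted p = 0.937).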

How the data were processed

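Transcriptomes of 12 livers, 6 Con and 6 Exe, came from 1 library each. According to the methods of the study, the reads were quality-filtered and mapped with HISAT on GRCm39, and the authors deposited the result as FPKM per gene, rounded to 2 decimals. The submitters' processing notes also list Bowtie2 and mm10. The tool behind the FPKM is not given in the sources used here. The labels do not say whether libraries were prepared together. DESeq, named in the methods of the study, needs counts and was not used.

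Groups were taken from sample titles. Genes with at least 1 FPKM in at least 6 mice were fitted on log2(FPKM + 1) with limma 3.58.1 (lmFit, eBayes with trend) in R 4.3.3, with Benjamini-Hochberg adjustment, and the fit was tested on simulated data. The thresholds of the study were kept (adjusted p 0.05, log2 fold change beyond 1 in size), with counts at an unadjusted p of 0.05 beside them. Exact permutation tests enumerated all divisions of the 12 mice (smallest p 0.00216), and correlations used 100000 permutations or, in groups of 6, all 720. These ran in Python 3.11.15 (scipy 1.17.1, numpy 2.4.6, pandas 2.3.3), and plots in matplotlib 3.10.9. The estimate of relative depth had a largest error of 0.012 on simulated data. That simulation gave 135 genes, against 37 in the livers, and its libraries had nearly equal depth, so unequal depths were not covered.

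Genes named were the 9 members, their isoforms, the 3 genes of each pathway list with the smallest p, the 2 genes most like each member, and Gckr, G6pc and Slc37a4. Some genes that this rule names are not reported here. The members, the lists and the pair of Con 1 and Exe 5 were chosen with earlier results of these data known. Alternatives were a pseudocount of 0.1, no filter, a filter at 5 FPKM, quantile normalization, an equal sum of FPKM, robust moderation, a replicate block, and leaving out mice.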

Additional observations from a re-analysis of the deposited data

Results flagged for a closer look

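In 4 of 26 sets of 6 mice (9 members and 4 ratios in 2 groups) the highest or lowest mouse lay far from the others. The rule was Dixon's ratio at its 95% critical value, and chance gives about 1.3 such sets if values are normally distributed. Dixon's ratio was taken on FPKM for the members and on the log2 scale for the ratios. On FPKM a high mouse stands out more than on the log2 scale of the other tests. Members were not examined on the log2 scale, so the 4 sets cannot be held against 1.3. Ppp1r3c was far above the rest in Con 4 (38.9 FPKM, Dixon's ratio 0.645) and in Exe 4 (41.9 FPKM, Dixon's ratio 0.683). Ppp1r3g was far above in Con 5, at 1.33 FPKM (Dixon's ratio 0.647), and Phka2 far below in Con 2, at 4.52 FPKM (Dixon's ratio 0.649). The relative depth was 1.024 in Con 4, 0.997 in Exe 4, 0.997 in Con 5 and 1.013 in Con 2, by an estimate that could not show large differences.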

How the results depend on the processing

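With each mouse left out in turn, genes at an unadjusted p of 0.05 went from 418 to 910 of all genes tested, lowest without Exe 2 and highest without Exe 5. Members past this p went from 0 to 2 of 8, with the 2 in the fit without Exe 5, where 910 genes passed. Other pathway genes went from 1 to 5 of 40. Without Con 1 and Exe 5 together, 2 of 8 members passed, beside 744 of all 10241 genes tested. The cause of these shifts was not tested. The stricter filter left 3 of 30 other pathway genes, beside 469 of 6468 genes tested. The replicate block left 3 of 40, beside 567 of 10241. The log2 fold change ran from -0.0761 to 0.0953 for Ugp2, from -0.0340 to 0.0550 for Phka2, from -0.12 to 0.0079 for Gyg and from -0.3721 to 0.0459 for Ppp1r3c with 1 mouse left out, crossing 0 each time, and Ugp2 was -0.0352 under quantile normalization. Under that setting the median of the members was -0.0089, with 4 of 8 higher. Of 339 values under alternatives, 313 kept direction and side of the threshold or, for counts, changed little. This is no measure of steadiness, since log2 fold changes cannot move with the filters, robust moderation or the replicate block. Loss of size was not counted either: Gys2, at -0.12 with all mice and -0.0046 without Con 5, was among those kept. In any of the 20 alternatives, 0 members and 0 genes passed both thresholds.

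The sources used here do not say whether same-numbered mice were paired. Deviations of same-numbered mice correlated above 0.1 in 1 of 6 pairs (range -0.478 to 0.165), and 1 of 6 Con mice correlated best with its own number. Both times this was Con 4 with Exe 4, the mice with the high Ppp1r3c. Such weak correlations cannot decide whether the mice were paired. With the replicate block 567 genes passed an unadjusted p of 0.05 in place of 636, and 0 members. The depth in reads is unknown, so no counting error is given for low genes such as Ppp1r3g.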

Other observations

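Genes of feeding state, clock time and acute phase were set beside the members, as 90 relations over the 12 mice. After adjustment 0 of the 90 passed 0.05 in both Pearson's r and Spearman's rho. Unadjusted, 12 of the 90 had a permutation p under 0.05 for r, where chance gives about 5%. The relations share members and companion genes, so these 12 are not separate results. The smallest was Phka2 with Irs2, the insulin receptor substrate (r = 0.747, permutation p = 0.00562, adjusted p = 0.213; rho = 0.462, permutation p = 0.134), and without Con 2 and Exe 1 this r was 0.163 (permutation p = 0.649, n = 10). Gys2 ran with the clock gene Per1 (r = 0.703, permutation p = 0.0117, adjusted p = 0.213; rho = 0.713, permutation p = 0.0118). Within groups this r was 0.612 in Con mice (exact permutation p = 0.193) and 0.777 in Exe mice (exact permutation p = 0.0833). Without Con 5 and Exe 4 it was 0.626 (permutation p = 0.0578, n = 10). Gys2 ran against the acute-phase gene Lcn2 with r = -0.700 (permutation p = 0.0125, adjusted p = 0.213), at -0.565 in Con mice (exact permutation p = 0.231) and -0.913 in Exe mice (exact permutation p = 0.00417), and without Con 5 and Exe 4 it was -0.543 (permutation p = 0.105, n = 10). These 3 pairs were chosen after their values were seen, and pairs of other members came as close. Gbe1 ran with Srebf1 (r = 0.714, permutation p = 0.0104), but r was 0.145 without Con 2 and Exe 2. Gyg ran against Per1 (r = -0.702, permutation p = 0.0125) and Ugp2 against Lcn2 (r = -0.691, permutation p = 0.0142). The adjusted p of each was 0.213.

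In Exe 5 G6pc was at 16.2 FPKM, against 75.8 to 274.6 FPKM in the other 11 mice. Pygl and Gys2 were also lowest of the 12 mice in Exe 5, at 133.7 and 47.2 FPKM. Its Lcn2 was at 609 FPKM. Con 1, with the highest Lcn2 (719 FPKM), held G6pc at 98.5 FPKM, Pygl at 148.8 FPKM and Gys2 at 62.7 FPKM, within the range of the other mice. The part of any shared cause was not tested.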
